A study of Mus musculus with 35 samples.

Results

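The 100 genes described here had their highest level in the mouse embryo at E5.5 and E6.5, the days after implantation on which the epiblast is a cup-shaped epithelium, and a lower level both before and after. They were chosen from the embryo values themselves. For each of the 50225 autosomal genes, log2(TPM + 1) was averaged over the 3 libraries of a stage, and 7190 genes had a mean TPM (a level per transcript length, scaled to the same total in every library) of at least 10 at E5.5 and at E6.5. A gap was then taken from the highest of the E3.5, E4.5 and E7.5 means to the lower of the E5.5 and E6.5 means. It was positive in 615 genes, and the 100 with the largest gap are the members. The gap, and every difference between embryo stages, is therefore a description with no test. The 4 cultures took no part in the choice.

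The study grew epithelial epiblast stem cells from the mouse embryo or from embryonic stem cells (ESCs) and set them beside the embryo, and 27 bulk RNA-seq libraries of its 35 samples, all labelled wild-type, were used. The 15 embryo libraries, 3 per stage, are labelled as strain CD-1, but the study's methods name both CD1 and Pdgfrα:H2B-GFP matings, and which embryos carried the reporter is stated for E4.5 alone. Each library pooled several embryos. At E3.5 the inner cell mass was cut out by laser. At E4.5 it was freed by immunosurgery and taken apart, and epiblast cells without the GFP of the reporter, which marks primitive endoderm, were picked by hand. At E5.5, E6.5 and E7.5 whole epiblasts were used, from which visceral endoderm and extra-embryonic ectoderm (and at E7.5 the allantois) had been removed by hand. The study fragmented the RNA of E3.5 and E4.5 for longer and at a lower temperature than that of the later stages. Between E4.5 and E5.5 this step changed with the stage and cannot be told apart from it. The 12 culture libraries, again 3 per group, were EpiLCs (epiblast-like cells, ESCs held for 48 h in FGF2 and ActivinA), 2D EpiSCs (epiblast stem cells converted from ESCs in FGF2 and ActivinA), ESC-derived 3D EpiSCs and embryo-derived 3D EpiSCs. Both 3D cultures grew in Matrigel with FGF2, ActivinA, the tankyrase inhibitor XAV and the BMP inhibitor Noggin, and the embryo-derived culture began from E5.5 epiblast of LifeAct-GFP or CD1 embryos, without a statement of which were sequenced. Between 2D and ESC-derived 3D EpiSCs the added inhibitors and the dimension changed together. By the study's methods the ActivinA dose, the base medium and the substrate changed as well, and none of these can be told apart. Both 3D cultures had the same medium and matrix. Nothing in the labels says which libraries of a culture came from separate cultures, so p-values measure the spread between these libraries, which may be technical.

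After implantation the epiblast leaves the naive state of the blastocyst, switches on de novo DNA methylation and passes through a state called formative, in which cells can answer signals for gastrulation or the germline. Its best known marks are the growth factor gene Fgf5 and the transcription factor genes Otx2 and Pou3f1, and the Nodal and FGF pathways maintain it and then pattern the primitive streak. The anterior primitive streak, the organiser of the mouse, expresses Gsc and Lhx1. EpiLCs are taken as a culture counterpart of the early post-implantation epiblast and EpiSCs as a counterpart of a later, primed one.

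A few facts of the libraries touch what follows. Among ESC-derived 3D EpiSCs, the libraries of replicates 1 and 2 lay close together (median absolute log2 difference over all genes tested 0.0700), and replicate 3 stood apart from them (0.286 and 0.264). Other close pairs were embryo-derived replicates 2 and 3 (0.0611) and 2D replicates 1 and 2 (0.0733), whereas the EpiLC pairs differed by 0.177 to 0.222. The main results of the ESC-derived culture are given with and without its replicate 3. The embryo libraries were made from total RNA and the culture libraries from poly-A RNA, so for RNAs without a poly-A tail the kit and the culture cannot be told apart. The E5.5 to E7.5 libraries also held RNA of visceral endoderm: the summed level of 29 autosomal marker genes ran from 1499 to 1550 TPM at E5.5, 2409 to 2561 at E6.5 and 2774 to 2883 at E7.5, with all 29 at 1 TPM or more, against 919 to 953 TPM at E3.5 (16 genes at 1 TPM or more) and 451 to 497 at E4.5 (17 genes). The part of these cells in the members' profiles was not tested. No member is on that marker list, but the list does not hold every gene of the tissue, and members may be expressed there too.

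Of the 100 members, 81 are protein-coding genes other than histones, 7 are replication-dependent histone genes, 8 are small structured RNAs, 2 are pseudogenes and 2 are long non-coding RNAs. The gap ran from 3.11 log2 units (Fgf5) to 0.465 (Adgrl1), with a median of 0.765, and was above 1 in 25 members. It was set by E7.5 in 71 members, by E4.5 in 22 and by E3.5 in 7, so that for most members the difference to E7.5 was smaller than that to the blastocyst stages. The median level of the members was 7.95 TPM at E3.5, 12.2 at E4.5, 43.9 at E5.5, 43.3 at E6.5 and 18.2 at E7.5, and 23 members had a mean under 1 TPM at E3.5. The E5.5 and E6.5 means were within 1 log2 unit of each other in 96 members, with E5.5 the higher in 64. At the edge of the choice, Cyp26a1, Snord15a and Adgrl1 had gaps of 0.474, 0.473 and 0.465, and the next genes, Pmaip1, Nudt19 and Fam171b, 0.465, 0.462 and 0.462. The choice moved with single libraries: 71 members were among the first 100 whichever embryo library was left out, among them 19 of the 20 with the largest gap.

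**Figure D1:**
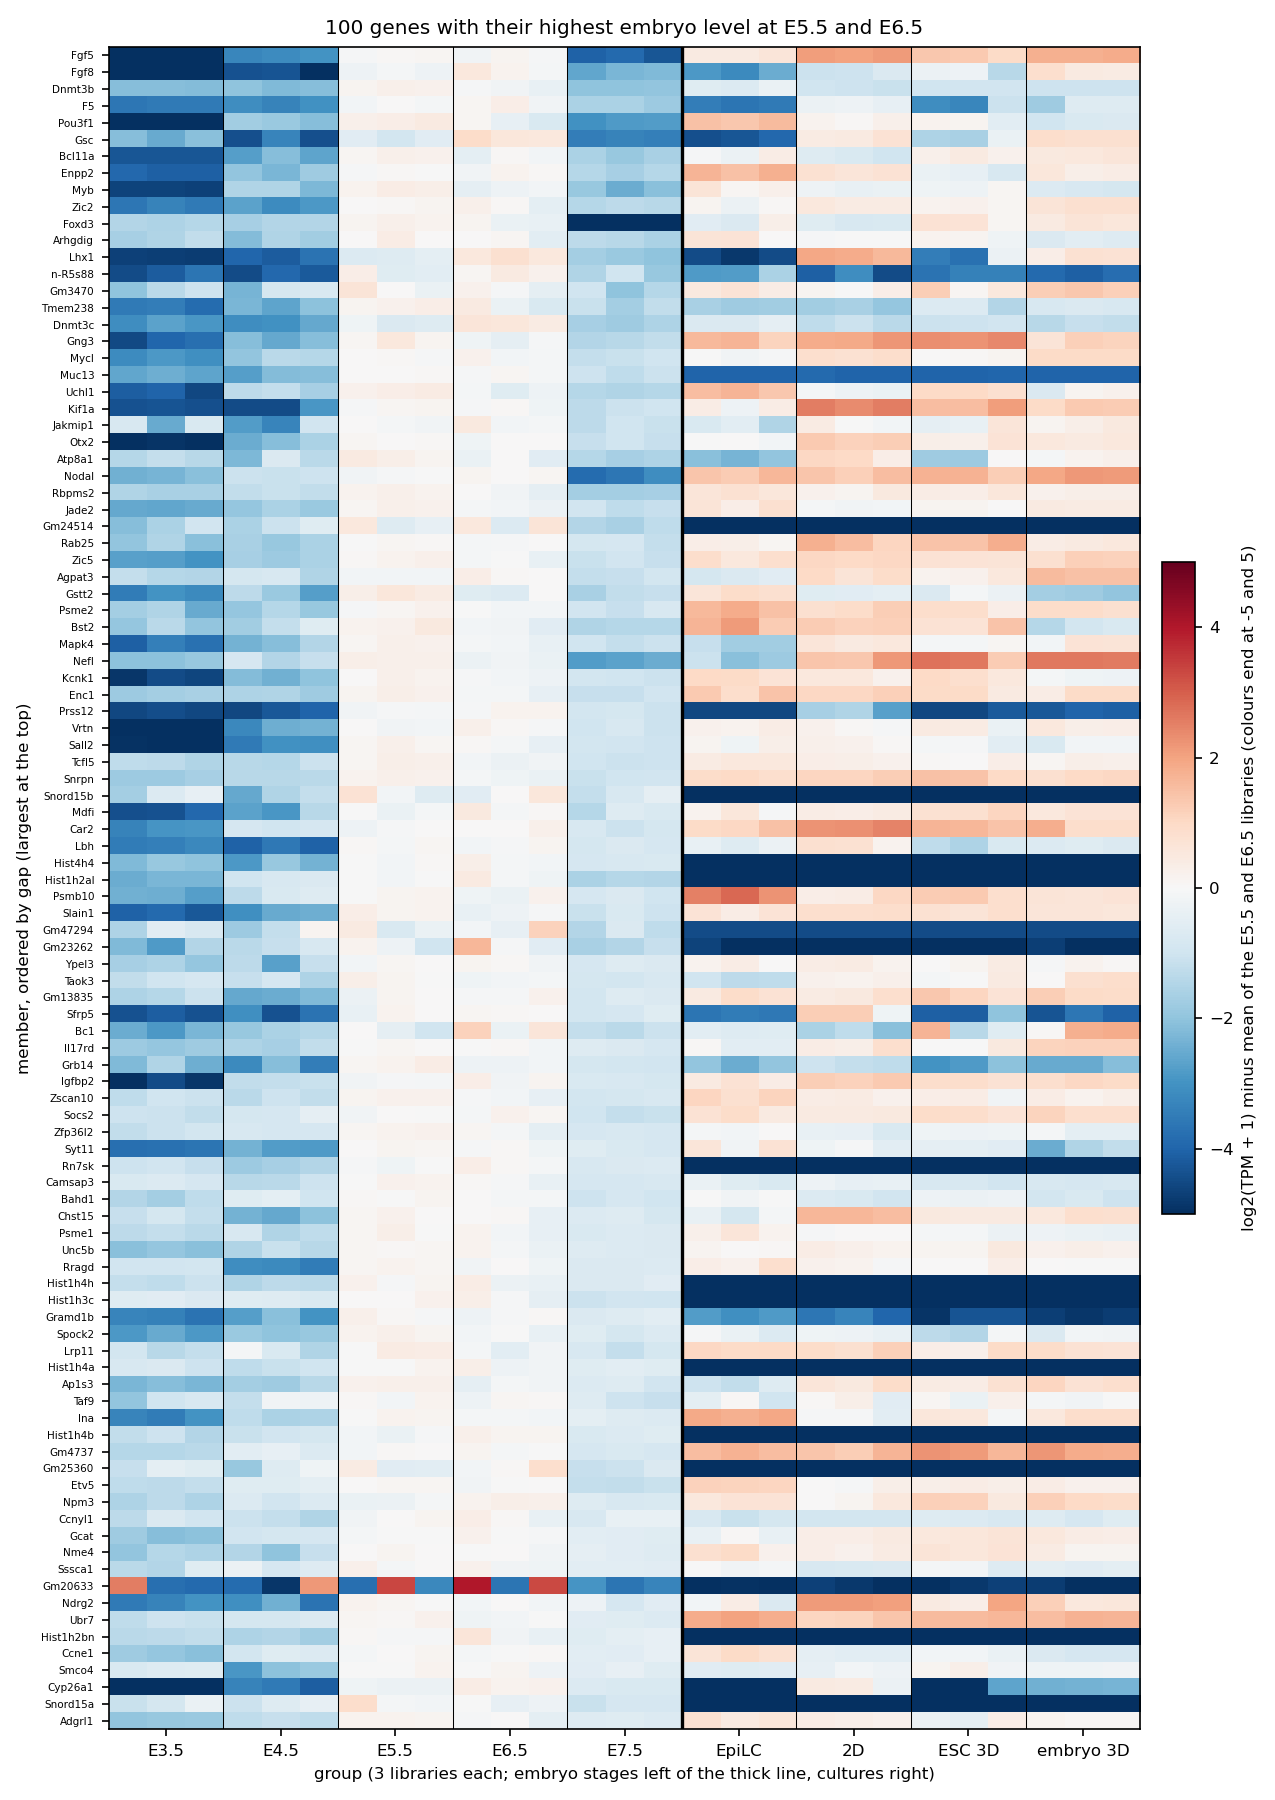
Level of each of the 100 members (rows, largest gap at the top) in all 27 libraries (columns, 3 per group), as log2(TPM + 1) minus the gene's mean over the E5.5 and E6.5 libraries; colours end at -5 and 5. Blue columns at E3.5, E4.5 and E7.5 show the rule, and the dark blue rows among the cultures are mostly histones and small RNAs, 13 of 15 of which were under 5 TPM in every culture library.

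Promoters of 6 members are shown because the results turn on them: Fgf5 and Dnmt3b lead the ranking among secreted factors and enzymes, and Gsc, Lhx1, Cyp26a1 and Sfrp5 had the largest differences between cultures. The sequences are RefSeq's (GRCm38.p6), 5′ to 3′ on the gene's strand, from 250 bases before to 50 bases after the start of transcription. Capitals mark matches, on either strand, to a TATA box (TATAAA), a GC box (GGGCGG) or a CCAAT box (CCAAT). A match is a description of the letters only. The 6 lie at chr5:98253934-98254233 (Fgf5, plus strand), chr2:153649199-153649498 (Dnmt3b, plus), chr12:104473187-104473486 (Gsc, minus), chr11:84525485-84525784 (Lhx1, minus), chr19:37697558-37697857 (Cyp26a1, plus) and chr19:42202203-42202502 (Sfrp5, minus).
Fgf5: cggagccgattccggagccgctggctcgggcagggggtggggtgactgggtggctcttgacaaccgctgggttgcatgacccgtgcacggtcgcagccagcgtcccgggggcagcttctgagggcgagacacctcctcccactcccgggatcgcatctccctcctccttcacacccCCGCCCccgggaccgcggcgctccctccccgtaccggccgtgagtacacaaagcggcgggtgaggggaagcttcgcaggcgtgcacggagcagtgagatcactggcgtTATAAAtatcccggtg
Dnmt3b: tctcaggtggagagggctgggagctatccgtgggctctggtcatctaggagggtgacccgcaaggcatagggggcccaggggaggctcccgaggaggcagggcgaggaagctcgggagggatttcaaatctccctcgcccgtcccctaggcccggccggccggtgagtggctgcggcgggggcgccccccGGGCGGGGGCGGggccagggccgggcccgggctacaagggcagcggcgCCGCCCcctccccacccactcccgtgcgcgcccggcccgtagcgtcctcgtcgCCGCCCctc
Gsc: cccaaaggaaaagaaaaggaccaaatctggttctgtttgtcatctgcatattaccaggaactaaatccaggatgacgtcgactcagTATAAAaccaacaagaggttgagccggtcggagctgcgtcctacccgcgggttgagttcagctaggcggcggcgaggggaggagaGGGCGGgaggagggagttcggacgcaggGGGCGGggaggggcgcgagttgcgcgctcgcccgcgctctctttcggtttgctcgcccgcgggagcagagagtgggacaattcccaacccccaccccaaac
Lhx1: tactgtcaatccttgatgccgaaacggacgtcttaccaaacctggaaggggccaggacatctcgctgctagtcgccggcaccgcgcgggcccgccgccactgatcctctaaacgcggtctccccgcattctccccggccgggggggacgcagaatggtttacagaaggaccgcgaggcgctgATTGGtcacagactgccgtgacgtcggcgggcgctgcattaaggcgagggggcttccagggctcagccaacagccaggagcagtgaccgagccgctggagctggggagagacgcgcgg
Cyp26a1: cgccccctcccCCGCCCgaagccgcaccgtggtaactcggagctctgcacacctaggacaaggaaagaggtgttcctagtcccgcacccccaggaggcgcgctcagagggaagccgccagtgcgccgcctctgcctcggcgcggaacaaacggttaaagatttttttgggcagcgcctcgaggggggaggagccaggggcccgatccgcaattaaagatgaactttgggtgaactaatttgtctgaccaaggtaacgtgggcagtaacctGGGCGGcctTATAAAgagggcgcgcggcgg
Sfrp5: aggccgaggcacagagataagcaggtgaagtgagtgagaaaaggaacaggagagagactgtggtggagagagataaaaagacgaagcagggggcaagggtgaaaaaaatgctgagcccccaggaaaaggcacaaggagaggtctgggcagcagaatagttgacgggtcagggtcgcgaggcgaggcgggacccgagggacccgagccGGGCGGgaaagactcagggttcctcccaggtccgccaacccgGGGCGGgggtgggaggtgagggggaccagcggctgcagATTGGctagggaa
The Fgf5 window held a TATA match in the stretch after the annotated start and a GC box upstream, and that of Cyp26a1 a TATA match likewise after the start and 2 GC boxes. Dnmt3b had 4 GC boxes and no TATA box, Lhx1 a lone CCAAT box, Sfrp5 2 GC boxes and a CCAAT box, and Gsc a TATA match well upstream with 2 GC boxes, its RefSeq start lying 94 bases from the start in the file. Of all 19432 autosomal promoters of the same length, 13.3% held the TATA box, 43.5% the GC box and 38.2% the CCAAT box. A promoter was matched for 65 of the 100 members, under 80%, so a comparison of base content or motifs over the members is void and none is given.

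Among secreted signals, Fgf5 showed the widest gap of all members. Fgf5, an FGF ligand (ENSMUSG00000029337.2, mm10 chromosome 5, 98254184 to 98277030, plus strand), had 0, 0.268 and 0 TPM at E3.5, 9.30, 10.1 and 11.5 at E4.5, 94.2, 103.02 and 106 at E5.5, 87.2, 108 and 95.8 at E6.5 and 5.02, 5.80 and 4.15 at E7.5. The lowest library of E5.5 and E6.5 was thus far above the highest of any other stage. Fgf8, a ligand needed for cells to leave the primitive streak (ENSMUSG00000025219.13, mm10 chromosome 19, 45736798 to 45742915, minus strand), had 5.21, 5.23 and 2.58 TPM at E4.5, 105, 116 and 104 at E5.5, 182, 140.0 and 117 at E6.5 and 19.7, 24.9 and 26.0 at E7.5. It was near 0 at E3.5 and, unlike Fgf5, kept a clear level at E7.5. Nodal, the TGF-beta family ligand that patterns the epiblast (ENSMUSG00000037171.6, mm10 chromosome 10, 61417972 to 61425338, plus strand), was present at E4.5 (7.85, 7.69 and 8.20 TPM), highest at E5.5 (15.8, 16.9 and 17.5) and E6.5 (19.5, 18.2 and 19.2) and nearly gone at E7.5 (0.301, 0.528 and 1.16). Sfrp5, a secreted inhibitor of Wnt signals, had means of 0.684 ± 0.732 TPM (SD, n = 3) at E4.5, 19.1 ± 3.64 at E5.5, 20.6 ± 0.400 at E6.5 and 11.1 ± 1.29 at E7.5.

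The de novo DNA methyltransferase gene Dnmt3b (ENSMUSG00000027478.15, mm10 chromosome 2, 153649450 to 153687730, plus strand) was the most abundant of the 20 members with the largest gap, per length. It had 428, 427 and 416 TPM at E3.5, 468, 409.7 and 432 at E4.5, 2104, 2242 and 2200.0 at E5.5, 1799.6, 1676 and 1452 at E6.5 and 464, 464 and 485 at E7.5. It was therefore well expressed before implantation and at E7.5 was near that level. Its neighbour Dnmt3c, a rodent copy of Dnmt3b known from the male germline whose exons begin 8922 bases beyond the end of Dnmt3b, had 53.3, 37.8 and 40.1 TPM at E5.5 and 97.2, 93.8 and 83.2 at E6.5, and means of 7.62 ± 1.87 at E4.5 and 19.3 ± 1.86 at E7.5. The copies are similar in sequence and how reads were divided between them was not stated, so the level of Dnmt3c is uncertain.

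Pou3f1, a POU transcription factor of the formative epiblast (ENSMUSG00000090125.3, mm10 chromosome 4, 124656807 to 124660655, plus strand), had 17.0, 15.6 and 12.5 TPM at E4.5, 69.6, 73.3 and 81.3 at E5.5, 63.4, 44.3 and 34.6 at E6.5 and 6.30, 7.43 and 7.57 at E7.5. Otx2, a homeobox gene of the epiblast and forebrain (ENSMUSG00000021848.16, mm10 chromosome 14, 48657677 to 48673819, minus strand), had 22.7, 28.9 and 42.6 TPM at E4.5, 141, 132 and 137 at E5.5, 113, 132 and 132 at E6.5 and 58.0, 65.5 and 58.0 at E7.5. Pou3f1 at E7.5 was under its E4.5 level, whereas Otx2 at E7.5 remained above every E4.5 library. The zinc finger genes Zic2 and Zic5, which lie head to head 9758 bases apart on chromosome 14, had means of 138 ± 5.48 and 42.2 ± 2.69 TPM at E5.5, 129 ± 32.5 and 33.5 ± 4.40 at E6.5, and 50.1 ± 1.54 and 17.3 ± 1.29 at E7.5. Zic2 was thus the more abundant in each of these stages, per length.

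Foxd3, a forkhead repressor (ENSMUSG00000067261.4, mm10 chromosome 4, 99656299 to 99658622, plus strand), differed strongly between E6.5 and E7.5. It stood at 12.4, 11.5 and 12.6 TPM at E3.5 and 10.7, 12.3 and 12.3 at E4.5, at 39.0, 42.8 and 41.0 at E5.5, at 40.0, 28.0 and 27.4 at E6.5, and at 0, 0 and 0.118 at E7.5. It was therefore expressed in the blastocyst and listed at or near 0 in all 3 E7.5 libraries. Bcl11a, known as a repressor of fetal globin, was listed at 0 in the 3 E3.5 libraries and had means of 21.3 ± 1.27 TPM at E5.5 and 16.3 ± 3.29 at E6.5. Vertnin (Vrtn) was likewise at 0 at E3.5 and reached 53.3 ± 4.12 and 61.4 ± 6.81 TPM. The proto-oncogenes Myb and Mycl had 30.2 ± 2.01 and 29.8 ± 1.15 TPM at E5.5, and Sall2, a spalt family factor, 63.4 ± 4.04. Zscan10, a zinc finger factor of pluripotent cells, and Etv5, an ETS factor that answers FGF signals, were already at 38.7 ± 4.32 and 71.6 ± 2.95 TPM at E4.5 and stood at 104 ± 3.79 and 111 ± 3.22 at E5.5.

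Gsc and Lhx1, homeobox genes of the organiser, were higher at E6.5 than at E5.5. Gsc (ENSMUSG00000021095.5, mm10 chromosome 12, 104471209 to 104473330, minus strand) had 3.91, 2.71 and 4.05 TPM at E3.5, 13.4, 10.2 and 13.5 at E5.5, 39.2, 30.6 and 29.9 at E6.5 and 0.913, 1.08 and 0.984 at E7.5. Lhx1 (ENSMUSG00000018698.15, mm10 chromosome 11, 84518284 to 84525535, minus strand) had 17.0, 17.4 and 19.6 at E5.5, 41.5, 49.7 and 40.7 at E6.5 and 7.98, 7.05 and 6.14 at E7.5. For both, no E5.5 library reached the lowest E6.5 library, and the differences of the log2 means were 1.35 and 1.24. Only Gm20633 had a larger difference (2.42), and that was not steady, since its libraries read 2.53, 482 and 4.18 TPM at E5.5 and 772, 2.76 and 465 at E6.5. Gm20633 overlaps the histone gene Hist2h2aa1 on the other strand, and with no use of strand stated, reads of the 2 genes cannot be told apart. At the other end, Gstt2 (a glutathione transferase), Pou3f1 and Uchl1 (a neuronal ubiquitin hydrolase) were lower at E6.5 than at E5.5, with differences of log2 means of -0.86, -0.68 and -0.63. Cyp26a1, which breaks down retinoic acid, is a member by a narrow margin: it had 9.03, 7.87 and 4.94 TPM at E4.5, 86.5, 83.7 and 82.1 at E5.5, 133, 116 and 119 at E6.5 and still 62.1, 59.6 and 59.2 at E7.5.

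**Figure D2:**
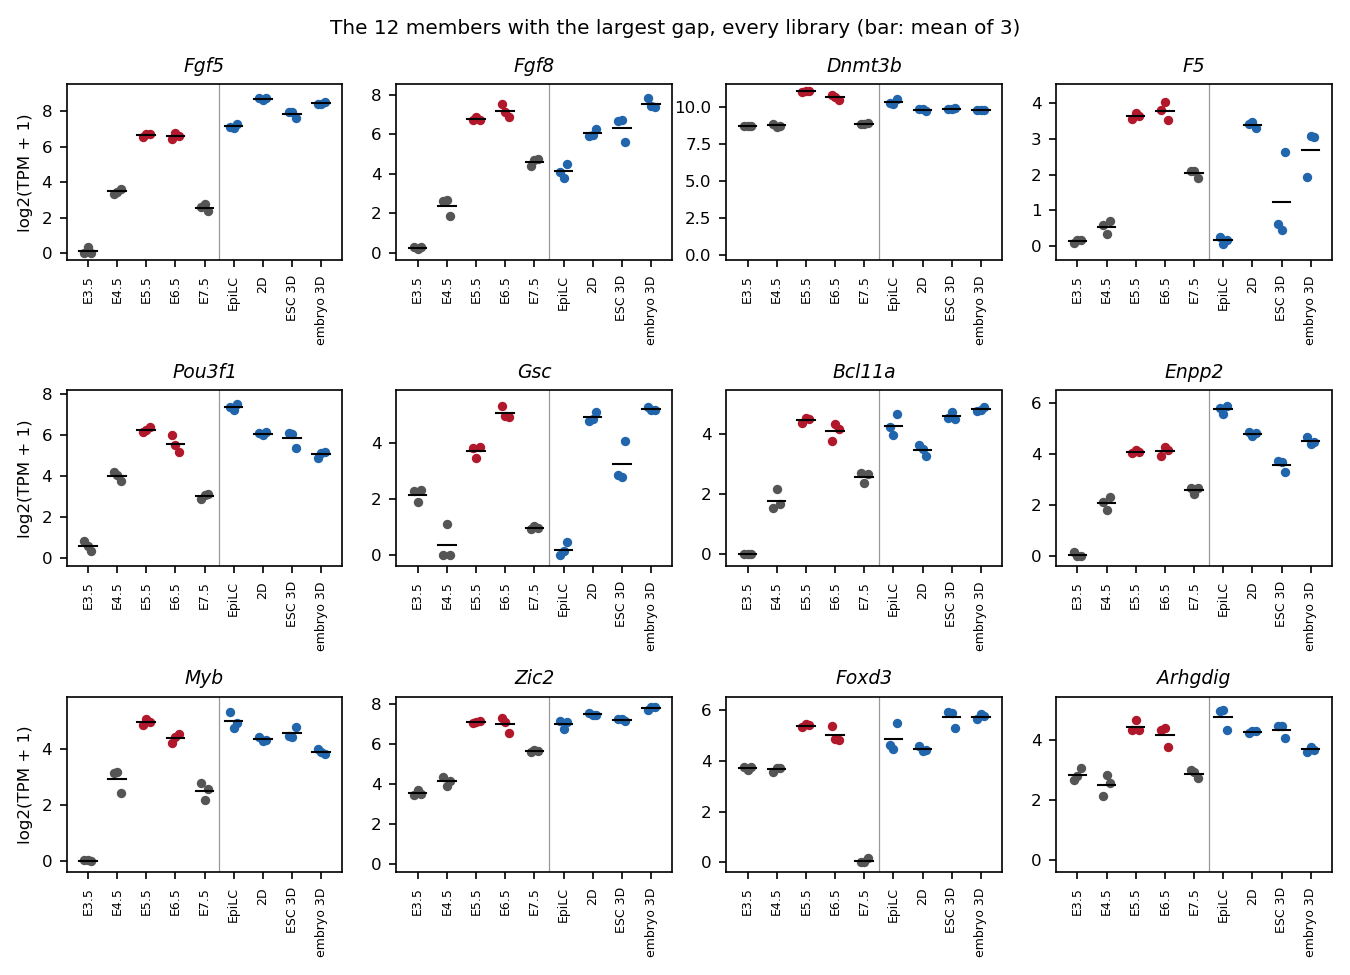
Level on the log2(TPM + 1) axis of the 12 members with the largest gap, in each of 27 libraries; red points are E5.5 and E6.5, grey points the other stages, blue points the cultures, and bars are means of 3 libraries. Foxd3 at E7.5 lies at the bottom of its panel (means of 0.0394 TPM there and 40.9 TPM at E5.5), and Fgf5 lies higher in all 12 culture libraries than in every embryo library.

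Other members with large gaps had varied functions. F5, coagulation factor V, had 11.4 ± 0.698 TPM at E5.5 and 12.8 ± 2.396 at E6.5 against 0.461 ± 0.176 at E4.5 and 3.12 ± 0.353 at E7.5. Enpp2, the secreted enzyme autotaxin, had 16.0 ± 0.822 and 16.3 ± 2.08, and Muc13, a transmembrane mucin, 15.4 ± 0.185 and 14.8 ± 1.09. Genes better known from neurons were also among the members: the intermediate filament genes Nefl (35.7 ± 0.734 TPM at E5.5) and Ina (26.1 ± 2.07), the kinesin gene Kif1a (22.1 ± 1.44) and Uchl1 (57.4 ± 3.64). So were subunits and activators of the immunoproteasome, Psmb10 (19.2 ± 1.43 TPM), Psme1 (173 ± 19.0) and Psme2 (75.9 ± 8.06), the last 2 lying 5912 bases apart on chromosome 14. Kif1a, Vrtn, Psme1, Psme2 and Npm3, and below Snord15b, Hist1h4a, Agpat3, Il17rd, Atp8a1 and Prss12, were named after their values were seen. In all, 8 pairs of members lay within 100 kb of each other and took in 13 members, Fgf8 and Npm3 (a nuclear chaperone gene) among them.

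Histone and small RNA members were among the most abundant in the embryo. Rn7sk, the 7SK RNA that restrains transcription elongation, had 3553, 3885 and 4489 TPM at E4.5, 11849, 10676 and 12165 at E5.5, 15652, 12955 and 11668 at E6.5 and 7146, 7419 and 7658 at E7.5. The histone H2A gene Hist1h2al had means of 1600.2 ± 67.3 and 1759 ± 454 TPM at E5.5 and E6.5, Hist1h4h 803 ± 84.5 and 718 ± 213, and Hist1h2bn 854 ± 33.2 and 910.2 ± 344. Their E6.5 values were led by replicate 1 (1303, 764 and 664 TPM for Hist1h2bn). The small nucleolar RNA Snord15a had 1845, 936 and 902 TPM at E5.5 and 976, 741 and 838 at E6.5, a wide spread. Histone genes, Snord15a and its copy Snord15b, the ribosomal 5S copy n-R5s88 and the pseudogene Gm3470 have near-identical copies, so how reads were divided is uncertain. When the 100 genes were chosen among protein-coding genes alone, 87 of the members stayed.

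The next question was how far the cultures held these genes. Most protein-coding members outside the histones were detected in every culture. Those missing from the culture libraries were mainly histones and small RNAs, for which the poly-A kit and the culture cannot be told apart. The median level of the 100 members was 30.3 TPM in EpiLCs, 39.0 in 2D EpiSCs, 34.5 in ESC-derived and 34.4 in embryo-derived 3D EpiSCs. Of the 85 members that are neither histones nor small RNAs, 68 were above 5 TPM in all 12 culture libraries, and 2 were below 5 TPM in all of them. A culture mean at or above the lower of the E5.5 and E6.5 means was found for 49 members in EpiLCs (47 to 53 in single libraries), 59 in 2D EpiSCs (55 to 62), 58 in ESC-derived (56 to 57) and 55 in embryo-derived 3D EpiSCs (55 to 58). A mean at or below the highest of the other stages was found for 34, 26, 28 and 28. These counts depend on the scale: after rescaling all 27 libraries by median-of-ratios factors, 37, 32, 36 and 38 members were at or above the E5.5 and E6.5 level and 38, 31, 31 and 34 at or below the other stages. Kits differed between embryo and culture, so no test was run.

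**Figure D3:**
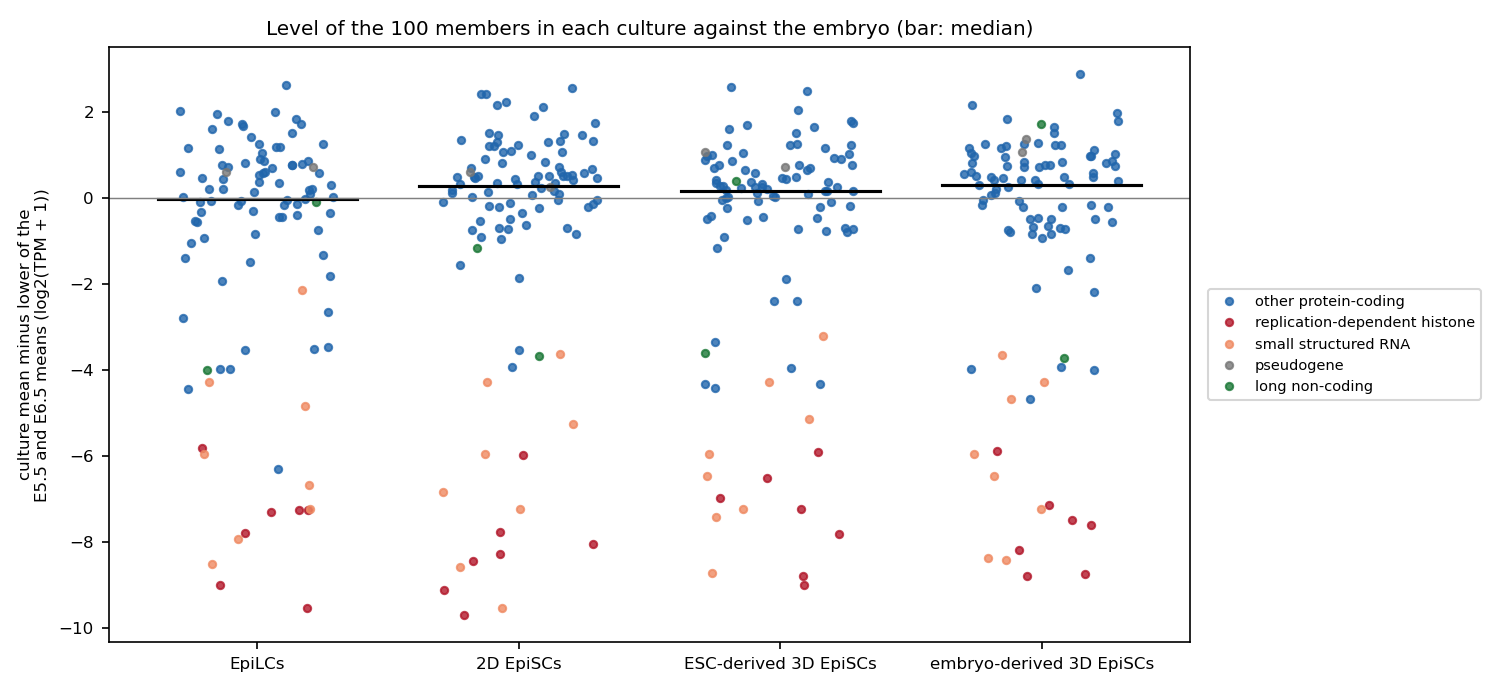
Mean log2(TPM + 1) of each of the 100 members in a culture minus the lower of its E5.5 and E6.5 means, 1 point per member, coloured by class of RNA, with a bar at the median; 0 means the embryo level. Histones and small RNAs lie lowest, down to -9.26 for Hist1h2al averaged over the 12 culture libraries, and most protein-coding members lie within 2 log2 units of 0.

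Members that stood furthest above the embryo in culture were Gng3, Gm4737, Ubr7, Nodal and Car2, by 1.95, 1.77, 1.72, 1.70 and 1.67 log2 units over the mean of the 12 culture libraries. Gng3, a G protein gamma subunit, had 23.9, 31.9 and 24.3 TPM at E5.5 and 69.0, 74.2 and 49.0 in EpiLCs, 82.9, 83.8 and 104 in 2D EpiSCs, 114, 109 and 122 in ESC-derived and 35.1, 51.5 and 49.1 in embryo-derived 3D EpiSCs. Nodal had 47.8, 44.7 and 57.7 TPM in EpiLCs, 48.6, 41.9 and 54.3 in 2D EpiSCs, 61.6, 60.8 and 42.6 in ESC-derived and 70.9, 83.6 and 81.7 in embryo-derived 3D EpiSCs, above all its embryo libraries in each. Car2, a carbonic anhydrase, had means of 196 ± 37.4, 439 ± 40.0, 266 ± 25.4 and 208 ± 83.9 TPM in the same order, and Ubr7, a ubiquitin ligase, 211 ± 15.2, 131 ± 16.3, 173 ± 4.52 and 179.7 ± 13.8. The comparison across kits was not tested.

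Some protein-coding members were low or absent in culture. Muc13 was listed at 0 in 10 of the 12 culture libraries and reached at most 0.0922 TPM. Gramd1b, a sterol transporter, had 73.7 ± 8.95 TPM at E5.5 and 9.14, 7.45 and 8.91 in EpiLCs, 4.71, 6.11 and 3.46 in 2D EpiSCs, 1.34, 2.53 and 2.48 in ESC-derived and 1.65, 1.43 and 1.61 in embryo-derived 3D EpiSCs. All 12 libraries were thus below the E7.5 mean of 44.3 ± 3.33. Others, Sfrp5, Cyp26a1, Lhx1, Gsc and F5 among them, were near 0 in some cultures and well expressed in others, and are described with the comparisons.

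Cultures were compared pair by pair with limma over the 13378 autosomal genes whose TPM exceeded 2 in 3 or more culture libraries. Calls needed a Benjamini-Hochberg adjusted p under 0.05 and a log2 fold change beyond 1 in either direction. Fold changes are on the log2(TPM + 1) scale, which understates those of low genes. Of the 100 members, 89 passed the filter and 11 did not. Of the 89, 75 were above 2 TPM in all 12 libraries, and n-R5s88 and Prss12 passed through a single culture, so that they were bound to differ. Sfrp5 exceeded 2 TPM in 4 libraries, the 3 of 2D EpiSCs and ESC-derived replicate 3, so it passed only through its 2D level. The calls of n-R5s88 and Prss12, and those of Sfrp5 against 2D EpiSCs, are therefore no result. The counts of called members below include them. In all, 48 members were called in at least 1 of the 6 comparisons and 41 in none. The like share over all genes was not computed, so these 2 counts show nothing particular to the members. The median log2 difference of all genes was 0.13 for 2D EpiSCs against EpiLCs, 0.09 for embryo-derived 3D EpiSCs against EpiLCs, -0.17 for ESC-derived 3D against 2D EpiSCs and -0.11 for ESC-derived against embryo-derived 3D EpiSCs. Rescaling moved these medians to -0.06, -0.01, 0.03 and 0.01, and no called member changed direction. The comparisons with EpiLCs share the EpiLC libraries and those with 2D EpiSCs the 2D libraries.

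Between 2D EpiSCs and EpiLCs, the organiser genes and the retinoic acid enzyme were the members that differed most. Lhx1, Gsc and Cyp26a1 were at or near 0 in EpiLCs and abundant in 2D EpiSCs, and Fgf5, Fgf8 and Otx2 were higher as well, while Pou3f1 and Etv5 were lower. In total 22 of the 89 tested members (24.7%) were called higher in 2D EpiSCs, beside 13.7% of all genes tested, and 9 (10.1%) were called lower, beside 5.59%. The median difference of the members was -0.11. Cyp26a1 had 0.0454, 0 and 0.187 TPM in EpiLCs and 139, 134 and 82.5 in 2D EpiSCs (log2 fold change 6.76 ± 0.62 SE, adjusted p = 4.87e-06). Lhx1 had 0.316, 0.0257 and 0.298 and 111, 104 and 89.1 (log2 fold change 6.40 ± 0.67 SE, adjusted p = 1.45e-05), and Gsc 0, 0.0999 and 0.387 and 26.97, 28.1 and 34.0 (log2 fold change 4.73 ± 0.28 SE, adjusted p = 1.6e-07). In each of these genes the lowest 2D library was far above the highest EpiLC library.

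Of the signalling members, Fgf5 had 137, 134 and 153 TPM in EpiLCs and 424, 402 and 435 in 2D EpiSCs (log2 fold change 1.57 ± 0.11 SE, adjusted p = 5.59e-07), and Fgf8 16.1, 12.8 and 21.3 and 59.4, 60.3 and 75.9 (log2 fold change 1.92 ± 0.28 SE, adjusted p = 0.000167). Sfrp5 had 0.651, 0.814 and 0.750 and 47.3, 48.2 and 16.8 (log2 fold change 4.33 ± 0.53 SE), replicate 3 of 2D EpiSCs being well below replicates 1 and 2. Since Sfrp5 passed the filter only through 2D EpiSCs, this difference is a description. Otx2 was higher by 1.28 ± 0.12, whereas Nodal differed by log2 fold change -0.05 ± 0.16 SE, adjusted p = 0.811 and Dnmt3b by log2 fold change -0.50 ± 0.10 SE, adjusted p = 0.00152, neither of which was called. On the lower side, Pou3f1 had 161, 149 and 179.7 TPM in EpiLCs and 66.5, 61.8 and 69.3 in 2D EpiSCs (log2 fold change -1.29 ± 0.18 SE, adjusted p = 9.37e-05), Ina 94.0, 84.7 and 95.8 and 23.1, 23.3 and 16.5 (log2 fold change -2.09 ± 0.19 SE, adjusted p = 5.14e-06), and Psmb10 107, 135 and 87.8 and 22.9, 23.7 and 37.4 (log2 fold change -1.95 ± 0.21 SE, adjusted p = 1.48e-05). The cell cycle gene Ccne1 differed by -1.30 ± 0.10 and Uchl1, also lower, by -1.76 ± 0.21. The share of higher calls among all genes, 71.0%, became 60.2% after rescaling, and Car2 (1.17, rescaled 0.97) then lost its call. Hist1h4b lost its call without EpiLC replicate 2 (-0.95) and Etv5 without 2D replicate 2 (-0.96).

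**Figure D4:**
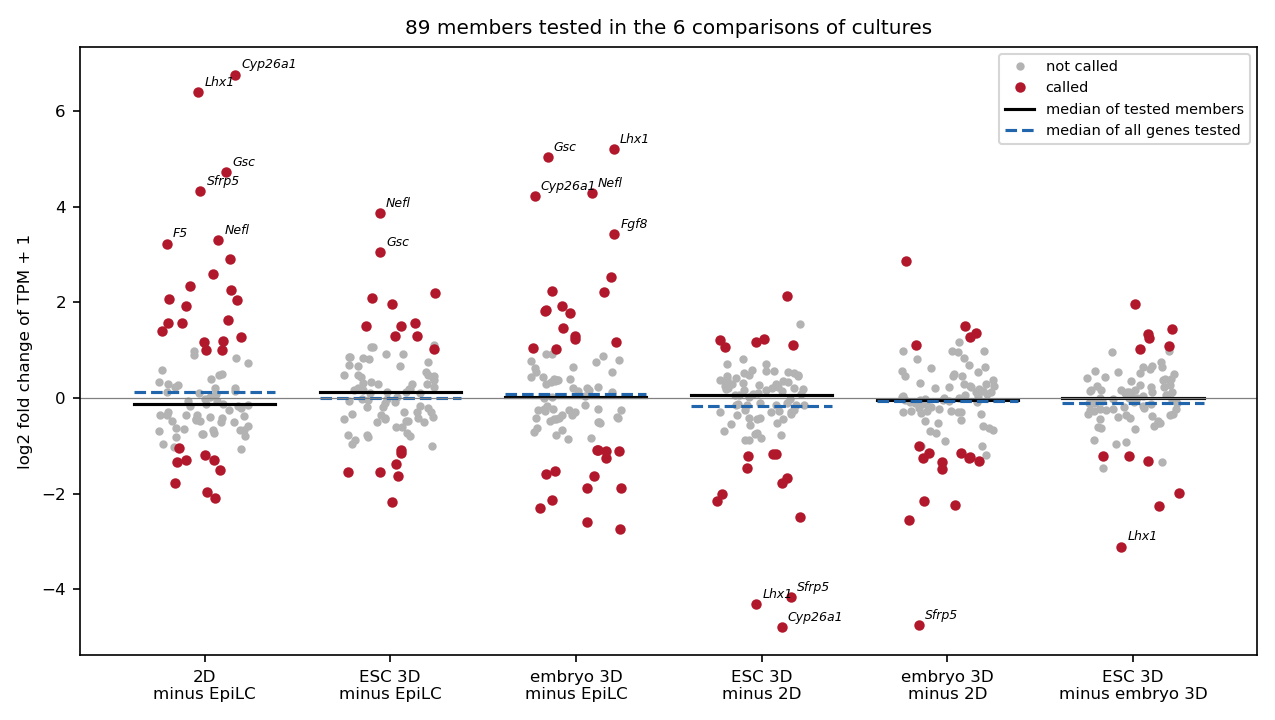
Log2 fold change on the TPM + 1 scale of the 89 tested members in each of the 6 comparisons of cultures; red points are members called by limma, grey points the others, black bars the members' median and dashed bars the median of all 13378 genes. Cyp26a1 (6.76) and Lhx1 (6.40) in 2D EpiSCs against EpiLCs are the highest points, and Cyp26a1 (-4.79) in ESC-derived 3D against 2D EpiSCs is the lowest.

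Embryo-derived 3D EpiSCs also differed from EpiLCs most in the organiser genes. In them Lhx1, Gsc, Nefl, Cyp26a1 and Fgf8 were much higher, and Bst2, Gstt2 and Pou3f1 lower. Here 18 of the 89 members (20.2%) were called higher, beside 10.6% of all genes, and 14 (15.7%) lower, beside 9.38%, with a median difference of 0.03. Lhx1 had 36.0, 48.0 and 47.3 TPM (log2 fold change 5.20 ± 0.67 SE, adjusted p = 7.18e-05), Gsc 38.6, 35.9 and 36.0 (log2 fold change 5.04 ± 0.28 SE, adjusted p = 8.25e-08) and Fgf8 226, 169.7 and 167 (log2 fold change 3.42 ± 0.28 SE, adjusted p = 1.83e-06), against the EpiLC values above. Nefl, the light neurofilament gene, had 13.3, 6.11 and 7.68 TPM in EpiLCs and 186, 187 and 182 in embryo-derived 3D EpiSCs (log2 fold change 4.28 ± 0.37 SE, adjusted p = 3.11e-06). These 4 genes had no library of EpiLCs near those of the 3D culture.

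Of the members that were lower, Bst2, the antiviral membrane protein tetherin, had 107, 146 and 79.5 TPM in EpiLCs and 11.4, 16.8 and 18.8 in embryo-derived 3D EpiSCs (log2 fold change -2.73 ± 0.25 SE, adjusted p = 5.08e-06). Gstt2 had 32.4, 40.7 and 37.7 and 5.75, 5.45 and 4.73 (log2 fold change -2.59 ± 0.15 SE, adjusted p = 1.11e-07), and Pou3f1 28.5, 34.2 and 35.4 in the 3D culture (log2 fold change -2.29 ± 0.18 SE, adjusted p = 1.03e-06). Pou3f1 was thus lower in all EpiSC libraries than in all EpiLC libraries. Fgf5 (1.29 ± 0.11), Mycl (1.04 ± 0.08) and Il17rd (1.46 ± 0.20), a membrane inhibitor of FGF signalling, were called higher, and Myb (-1.10 ± 0.14) and Ccne1 (-1.60 ± 0.10) lower. Nodal differed by log2 fold change 0.65 ± 0.16 SE, adjusted p = 0.0055 and Zic2 by log2 fold change 0.78 ± 0.12 SE, adjusted p = 0.000188, both under the limit of 1. Mycl lost its call on the rescaled values (0.94). Myb lost it without EpiLC replicate 1 (-0.94), Arhgdig without EpiLC replicate 1 or 2 (-0.97 and -0.95) and Ina without embryo-derived replicate 1 (-0.99).

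ESC-derived 3D EpiSCs differed from EpiLCs in fewer members. Nefl, Gsc and Fgf8 were higher and Enpp2, Gramd1b and Ina lower. The calls were 11 higher (12.4%, beside 4.87% of all genes) and 7 lower (7.87%, beside 7.47%), with a median difference of 0.12, so that the share of lower calls was close to that of all genes. Nefl had 196, 189 and 73.1 TPM (log2 fold change 3.87 ± 0.37 SE, adjusted p = 1.11e-05), Gsc 6.37, 5.95 and 16.1 (log2 fold change 3.05 ± 0.28 SE, adjusted p = 7.51e-06) and Fgf8 100.3, 104 and 47.5 (log2 fold change 2.20 ± 0.28 SE, adjusted p = 9.65e-05). Replicate 3 was the lowest of the 3 for Nefl and Fgf8 and the highest for Gsc, and without it the differences were 4.34, 2.64 and 2.57 for Nefl, Gsc and Fgf8. Enpp2 had 54.9, 46.8 and 58.1 TPM in EpiLCs and 12.4, 12.01 and 8.74 in the 3D culture (log2 fold change -2.18 ± 0.14 SE, adjusted p = 3.4e-07). Lhx1 (2.10 ± 0.67) and Cyp26a1 (1.97 ± 0.62) were called higher as well, but their ESC-derived libraries read 1.64, 1.21 and 22.6 and 1.08, 1.15 and 15.6 TPM. Without replicate 3 the differences were 1.00 and 0.98, and Cyp26a1 was no longer called. Both also lost their calls when any EpiLC library was left out (1.98 to 2.16 for Lhx1 and 1.92 to 2.04 for Cyp26a1), and with the 2 compared cultures alone (limma adjusted p = 0.0967 and 0.0874).

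Against 2D EpiSCs, the ESC-derived 3D EpiSCs had less of the same organiser genes. Cyp26a1, Lhx1, Sfrp5, F5 and Gsc were lower, and Foxd3, Uchl1 and Bcl11a were higher. Of the 89 members, 12 (13.5%) were called lower, beside 8.36% of all genes, and 6 (6.74%) higher, beside 0.703%, with a median difference of 0.06. Cyp26a1 differed by -4.79 ± 0.62, Lhx1 by -4.30 ± 0.67 and Gsc by -1.68 ± 0.28. Without replicate 3 the differences were -5.78, -5.40 and -2.09. Sfrp5, which passed the filter only through 2D EpiSCs, is described without a test. It had 47.3, 48.2 and 16.8 TPM in 2D EpiSCs and 0.210, 0.191 and 4.07 in ESC-derived 3D EpiSCs (log2 fold change -4.16 ± 0.53 SE). The ESC-derived replicate 3 again stood highest (-4.86 without it). Markers of visceral endoderm summed to 503 to 661 TPM in 2D EpiSCs and 24.3 to 175 in ESC-derived 3D EpiSCs (175 in replicate 3). The sum was 99.8 to 294 in embryo-derived 3D EpiSCs and 43.8 to 54.9 in EpiLCs. In the same order, 14, 9, 9 and 5 of the 29 genes were at 1 TPM or more. Cyp26a1, Lhx1, Sfrp5 and F5 had their highest mean in 2D EpiSCs. Gsc had its highest in embryo-derived 3D EpiSCs, where this list of markers summed to less than in 2D. Of the 12 genes of that list that were tested, 11 were lower in ESC-derived 3D than in 2D EpiSCs, Cer1, Sox17, Gata6 and Gata4 among them, and none higher. Of all genes, 8.36% were lower and 0.703% higher. In 2D EpiSCs 10 of the 12 were higher than in EpiLCs and 1 was lower, beside 13.7% and 5.59% of all genes. A gene that passed the filter through 2D EpiSCs alone was bound to be lower elsewhere. How many did so was not counted, so these counts are a description. Afp and Ttr, secreted products of that tissue, were at or near 0 in all 12 culture libraries. Cer1 is also on the list of primitive streak genes, and the part of such cells in the members' values was not tested. Fewer cells of a type and less RNA per cell cannot be told apart in bulk libraries.

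On the higher side of this comparison, Foxd3 had 23.0, 20.1 and 20.5 TPM in 2D EpiSCs and 60.3, 58.7 and 38.3 in ESC-derived 3D EpiSCs (log2 fold change 1.24 ± 0.24 SE, adjusted p = 0.00289). Bcl11a had 11.4, 10.4 and 8.77 and 22.1, 25.6 and 21.7 (log2 fold change 1.11 ± 0.16 SE, adjusted p = 0.000444), and no library of either gene overlapped between the cultures. The other higher calls were Uchl1 (1.17 ± 0.21), Rn7sk (2.13 ± 0.55) and the histone genes Hist1h4b and Hist1h4a, the last 3 being RNAs whose trace levels in poly-A libraries ran up to 113 TPM for Rn7sk and 3.87 TPM for Hist1h4b in the 3D culture. Hist1h4a lost its call without ESC-derived replicate 2 (0.76) and without 2D replicate 2 (0.81). The higher share of all calls was 7.76%, and 21.0% after rescaling. With the close replicates averaged, only 2 members were called higher: Foxd3 (1.15, limma adjusted p = 0.0583), Rn7sk, Hist1h4b and Hist1h4a lost their calls, and on the lower side so did F5 (-1.78, adjusted p = 0.0859).

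Embryo-derived 3D EpiSCs differed from 2D EpiSCs in a partly different set. Sfrp5, Cyp26a1 and Bst2 were lower, Fgf8, Foxd3 and Bcl11a were higher, and Gsc was not called, while the call of Lhx1 depended on the fit. Of the 89 members 13 (14.6%) were called lower, beside 7.77% of all genes, and 5 (5.62%) higher, beside 2.21%, with a median difference of -0.04. Sfrp5 had 0.0335, 0.690 and 0.270 TPM in embryo-derived 3D EpiSCs (log2 fold change -4.74 ± 0.53 SE), a description, as it passed the filter only through 2D EpiSCs. Cyp26a1 had 18.6, 19.0 and 19.3 there (log2 fold change -2.54 ± 0.62 SE, adjusted p = 0.00945). Cyp26a1 was thus below every 2D library and above every ESC-derived one. Gsc differed by log2 fold change 0.31 ± 0.28 SE, adjusted p = 0.436 and Lhx1 by log2 fold change -1.20 ± 0.67 SE, adjusted p = 0.2. The libraries of Lhx1 did not overlap (36.0, 48.0 and 47.3 TPM against 111, 104 and 89.1), and at the same fold it was called with limma on these 2 cultures alone (adjusted p = 0.00176) and without ESC-derived replicate 3 (adjusted p = 0.000201), a library of neither culture that enters the shared estimate of spread. Cyp26a1 lost its call with close replicates averaged (-2.43, limma adjusted p = 0.0626). Fgf8 was higher by log2 fold change 1.51 ± 0.28 SE, adjusted p = 0.00221, Foxd3 by log2 fold change 1.27 ± 0.24 SE, adjusted p = 0.00267 and Bcl11a by log2 fold change 1.36 ± 0.16 SE, adjusted p = 0.000105. Bc1, a small cytoplasmic RNA of neurons that is counted above with the long non-coding RNAs, was the highest call (2.87 ± 0.68). Its libraries were uneven, at 108, 363 and 385 TPM in the 3D culture and 33.9, 43.5 and 24.0 in 2D. How far the poly-A kit captured it was not tested. The number called higher was not stable: it was 8 with close replicates averaged, 3 over protein-coding genes alone, 9 with a pseudocount of 0.1 and 8 without 2D replicate 1. Gramd1b lost its call without 2D replicate 2 (-0.98), and Car2 without embryo-derived replicate 2 or 3 (-0.99 and -0.98).

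Between both 3D cultures, which share medium and matrix and differ in origin, fewer members were called. The ESCs and the embryos may also differ in genetic background, which cannot be told apart from origin. Lhx1, Gsc, Agpat3 and Fgf8 were higher in the embryo-derived culture, and Bst2, Gstt2 and Gng3 in the ESC-derived culture. With ESC-derived minus embryo-derived as the direction, 6 members (6.74%) were higher, beside 2.3% of all genes, and 6 (6.74%) lower, beside 1.93%, with a median of -0.00. Lhx1 differed by log2 fold change -3.10 ± 0.67 SE, adjusted p = 0.0114 and Gsc by log2 fold change -1.98 ± 0.28 SE, adjusted p = 0.00101, and Lhx1 by -4.20 without ESC-derived replicate 3. Lhx1 lost its call with close replicates averaged (-2.49, limma adjusted p = 0.143) and with the 2 cultures alone (-3.10, adjusted p = 0.0840), as did Cyp26a1, Fgf8 and Uchl1. No ESC-derived library of either gene reached the lowest embryo-derived library. Agpat3, an acyltransferase of phospholipids, had 51.4, 53.0 and 65.2 TPM where the cells came from ESCs and 139, 127 and 126 where they came from the embryo (log2 fold change -1.20 ± 0.13 SE, adjusted p = 0.00014). Bst2 had 53.9, 51.8 and 87.9 and 11.4, 16.8 and 18.8 (log2 fold change 1.96 ± 0.25 SE, adjusted p = 0.000542), Gstt2 12.4, 19.6 and 17.2 and 5.75, 5.45 and 4.73 (log2 fold change 1.44 ± 0.15 SE, adjusted p = 0.000105) and Gng3 differed by log2 fold change 1.34 ± 0.18 SE, adjusted p = 0.000668. Without ESC-derived replicate 3, Agpat3 differed by -1.31, Bst2 by 1.72 and Gstt2 by 1.40. Fgf8 (-1.22 ± 0.28) lost its call without ESC-derived replicate 3 (-0.86), Uchl1 (1.04 ± 0.21) without embryo-derived replicate 1 (0.73), and Cyp26a1 (-2.25 ± 0.62) without any of the libraries except ESC-derived replicate 3 (-1.74 to -2.26 in those 5 fits). Atp8a1 was called although its libraries overlapped between both cultures. Among all genes the higher share of calls was 54.4%, and 68.3% after rescaling, and fitting the 2 cultures alone left 2 members called lower.

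**Figure D5:**
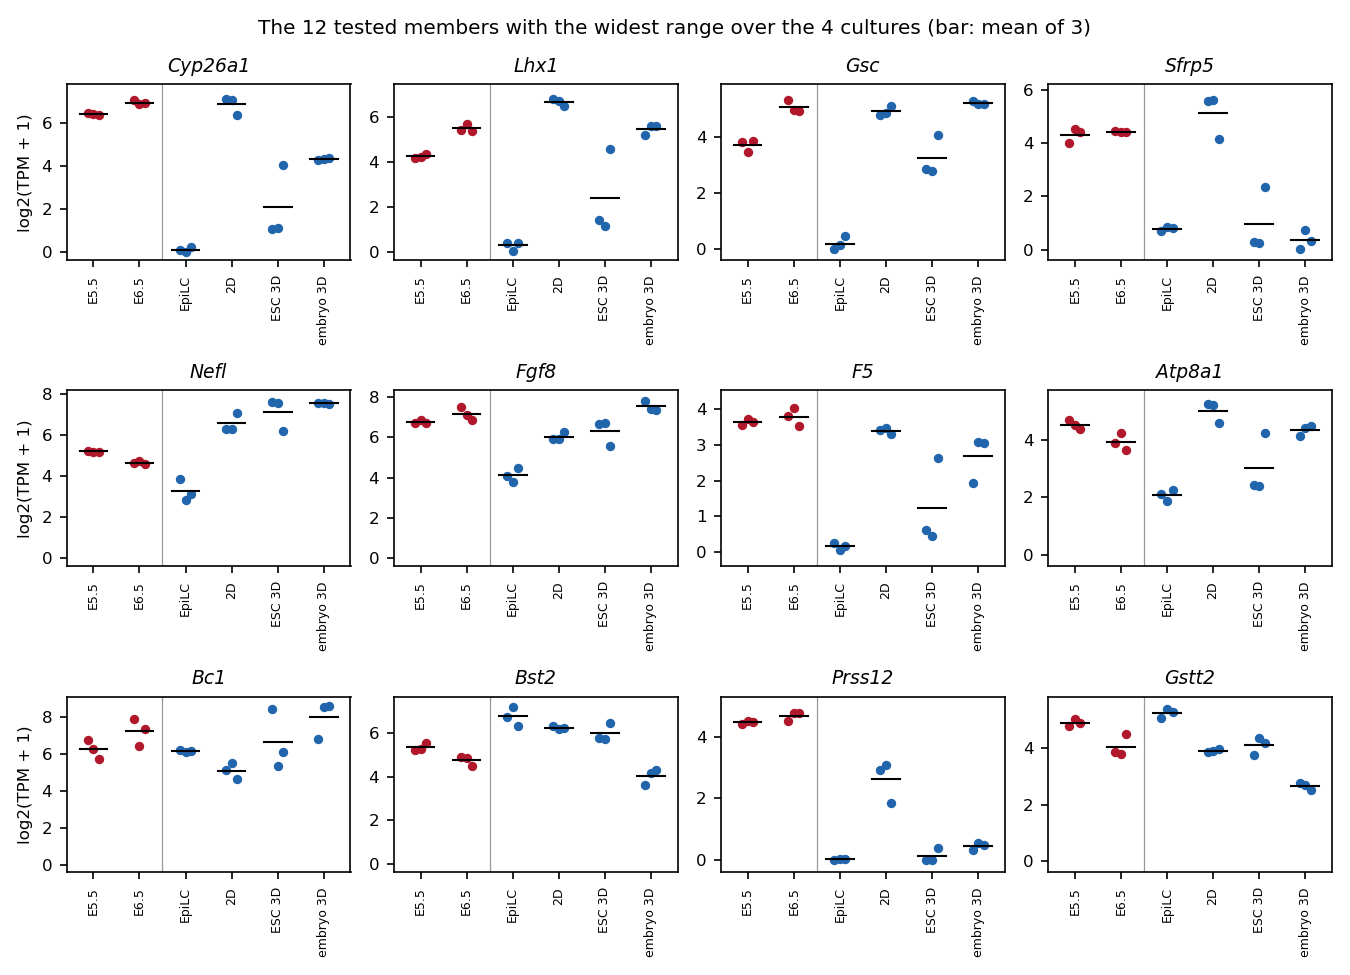
Level on the log2(TPM + 1) axis of the 12 tested members with the widest range over the 4 cultures, at E5.5 and E6.5 (red) and in each culture (blue), 1 point per library with bars at means of 3. In Cyp26a1, Lhx1, Gsc, Sfrp5, F5 and Atp8a1 the highest of the 3 ESC-derived points is replicate 3 (Lhx1 at 22.6 TPM against 1.64 and 1.21).

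The levels of the leading members across all cultures can be put in order. For Fgf5 the order was 2D EpiSCs, embryo-derived 3D, ESC-derived 3D and EpiLCs, with means of 420.1 ± 16.8, 347 ± 11.2, 229.5 ± 30.9 and 141 ± 9.92 TPM. The 2D and embryo-derived cultures were neighbours that did not pass the test (log2 fold change -0.27 ± 0.11 SE, adjusted p = 0.0764). For Pou3f1 it ran from EpiLCs (mean 163 ± 15.4 TPM) over 2D (65.9 ± 3.79) and ESC-derived 3D (57.0 ± 14.7) to embryo-derived 3D EpiSCs (32.7 ± 3.66). Dnmt3b was highest in EpiLCs (1305 ± 178 TPM) and lay between 915 and 960 TPM as a mean in the 3 EpiSC cultures. Zic5, Sall2 and Vrtn had no called difference in any comparison, Vrtn with means from 60.7 to 75.0 TPM. Of the 89 tested members, EpiLCs had the highest mean in 33, embryo-derived 3D EpiSCs in 23, 2D EpiSCs in 22 and ESC-derived 3D EpiSCs in 11. The same count was not taken over all genes or on rescaled values, so it shows nothing particular to the members.

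Genes of the same pathways were read from lists chosen with earlier results of these data known, and the counts include the members on each list. Of 34 genes of Nodal and FGF signalling, 4 of them members, 33 were tested. In 2D EpiSCs, 11 of them exceeded their EpiLC level and 4 were below it, all past the test, beside 13.7% and 5.59% of all genes (list median 0.50 against 0.13 for all genes). In embryo-derived 3D EpiSCs 7 were higher and 5 lower than in EpiLCs, beside 10.6% and 9.38% of all genes, and in ESC-derived 3D EpiSCs 4 and 5, beside 4.87% and 7.47%. Members Fgf5, Fgf8 and Etv5 were among those called in 2D EpiSCs. Of 25 primitive streak and mesoderm genes, the list that holds the members Gsc, Lhx1 and Fgf8, 13 passed the filter. Against EpiLCs, 12 rose in 2D EpiSCs, 9 in 3D EpiSCs from ESCs and 10 in 3D EpiSCs from the embryo, with none called lower, beside 13.7%, 4.87% and 10.6% of all genes called higher. Gsc and Lhx1, at or near 0 in EpiLCs, passed the filter through EpiSC libraries alone and could only be higher there. How many of the 13 did so was not counted, so the counts against EpiLCs are a description. Between the 3D cultures, 9 were lower where the cells came from ESCs, beside 1.93% of all genes, and 1 was higher, beside 2.3%. The summed level of that list was 62.0 to 77.6 TPM in EpiLCs, 714 to 774 in 2D EpiSCs, 243 to 336 in ESC-derived and 667 to 745 in embryo-derived 3D EpiSCs. In the embryo, measured with another kit, it was 333 to 354 at E3.5, 248 to 251 at E4.5, 311 to 315 at E5.5, 641 to 834 at E6.5 and 767 to 775 at E7.5. Of 16 DNA methylation genes 15 were tested, and Dnmt3a and Dnmt3l were lower than in EpiLCs in all 3 EpiSC cultures, while the member Dnmt3b was not called (-0.50 in 2D, -0.43 in ESC-derived and -0.50 in embryo-derived 3D EpiSCs). Naive pluripotency genes, none of them a member, summed to 1576 to 2302 TPM in EpiLCs, 130 to 136 in 2D EpiSCs, 75.8 to 114 in ESC-derived and 98.4 to 131 in embryo-derived 3D EpiSCs.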

How the data were processed

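Bulk RNA-seq was measured in 27 libraries, 12 of cultures and 15 of embryos, 3 per group as the labels give them. Single-cell and bisulfite libraries of the series were not analysed here. TPM values per gene are as deposited: the authors obtained them with StringTie and GENCODE annotation from STAR alignments (mm10) of reads that cutadapt 2.4 had trimmed. Every library sums to the same total, so depth is unknown and no counting interval can be given. Empty cells, in 56 of 54490 lines, were read as 0, and 12 identifiers on several lines were summed. How strand entered the values is not given in the sources used here. Exons of 33 members overlap those of a gene on the other strand.

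The members and the gene lists were chosen with earlier results of these data known. Cultures were compared with limma 3.58.1 (R 4.3.3) on log2(TPM + 1), the 4 cultures in 1 fit, two-sided, with Benjamini-Hochberg adjustment over 13378 genes. The study's count model could not be used on TPM. Errors are SD over 3 libraries or the SE of the fit. In data simulated for 2D EpiSCs against EpiLCs with 13378 genes, 194 of 200 genes changed well beyond the calling limit were recovered, with 4 false calls. The noise was independent between libraries, and changes near that limit and close replicates were not simulated. Tables and plots used Python 3.11.15, pandas 2.3.3, numpy 2.4.6 and matplotlib 3.10.9.

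Named genes were the 20 members with the largest gap, those at either side of the limit, the 3 called members with the largest change each way in a comparison without overlapping libraries, members on a list, the 5 highest and 5 lowest in culture against embryo, and the 3 with the largest and smallest E6.5 minus E5.5 difference. The alternatives tried were a pseudocount of 0.1, rescaling, no filter, protein-coding genes alone, an intensity trend, a replicate block, the compared cultures alone, close replicates averaged, and each library left out.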

Additional observations from a re-analysis of the deposited data

How the results depend on the processing

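Over 534 pairs of a tested member and a comparison, 129 were called and 91 kept the call under all 20 alternatives. Among all values of alternatives, 136 lost a call, 99 gained one and none changed direction. Counts of called members that moved by more than 1.5 times were these. With close replicates averaged, members higher in ESC-derived 3D than in 2D EpiSCs went from 6 to 2, members higher in embryo-derived 3D than in 2D EpiSCs from 5 to 8, and, between both 3D cultures, members lower in the ESC-derived culture from 6 to 3. The second of these was 3 over protein-coding genes only and 9 with a pseudocount of 0.1, and the last was 2 with the compared cultures only. Rescaled TPM brought the members at or above the embryo level from 59 to 32 in 2D EpiSCs and from 58 to 36 in ESC-derived 3D EpiSCs. The cause was not tested.

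With single libraries left out, members higher in embryo-derived 3D than in 2D EpiSCs ranged from 5 to 8 (8 without 2D replicate 1). Against EpiLCs the ranges were 20 to 24 higher and 8 to 10 lower in 2D EpiSCs, 8 to 15 and 7 to 8 in ESC-derived 3D EpiSCs, and 16 to 18 and 12 to 14 in embryo-derived 3D EpiSCs. The call of n-R5s88 in ESC-derived 3D EpiSCs against EpiLCs (-1.08) was lost without EpiLC replicate 3 (-0.66) and without any one of the ESC-derived libraries (-0.98 to -1.13). From 86 (without E6.5 replicate 3) to 99 members stayed among the first 100, 98 with a pseudocount of 0.1 and 78 on rescaled TPM.

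Replicate numbers did not pair the samples: deviations of same-numbered libraries of different cultures correlated by 0.0159 on average (-0.136 to 0.163 over 18 pairs). With the replicate block, calls numbered 22 higher and 9 lower in 2D EpiSCs, 11 and 6 in ESC-derived and 17 and 14 in embryo-derived 3D EpiSCs against EpiLCs, 6 and 11 in ESC-derived and 5 and 13 in embryo-derived 3D against 2D EpiSCs, and 6 and 5 between both 3D cultures. Depth is unknown, so how far it limits low members such as Sfrp5 or Prss12 could not be given.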
